A study of Mus musculus with 12 samples.

Results

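The colony-stimulating factors and their receptors were examined in RNA-seq of thioglycollate-elicited peritoneal exudate cells (PECs), the mostly macrophage exudate that fills the mouse peritoneal cavity after an irritant. The members were set by name: the ligand genes *Csf1*, *Csf2* and *Csf3* and the receptor genes *Csf1r*, *Csf2ra*, *Csf2rb*, *Csf2rb2* and *Csf3r*, 8 genes. Of these, 7 are among the 12850 genes of the analysed table and all 7 passed the filter on low values that left 11885 genes for testing, while *Csf2* was not analysed here. The libraries came from C57BL/6 mice that were either WT or homozygous for *Zc3h12a*S513A/S513A (S513A), a CRISPR/Cas9 knock-in made in C57BL/6J eggs that replaces a serine of Regnase-1, the RNase encoded by *Zc3h12a*, in every cell. PECs taken 3.5 days after the injection were cultured and given LPS (100 ng/ml), an outer membrane component of Gram-negative bacteria that Toll-like receptor signaling detects, for 0, 4 or 8 hr, with 2 libraries for each genotype and time point and 12 in all. The age of the mice is not given in the sources used here, and neither is whether the libraries of a group came from separate mice, so the p values measure only the spread between these libraries. The comparisons ask how LPS changes these genes and whether the S513A allele changes them.

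Colony-stimulating factors are secreted proteins that keep myeloid cells alive and drive their growth and maturation. CSF1 (M-CSF) acts through the receptor tyrosine kinase CSF1R, on which macrophages depend. CSF2 (GM-CSF) acts through a specific alpha chain, encoded by *Csf2ra*, and the common beta chain encoded by *Csf2rb*. Mice carry a further beta chain gene, *Csf2rb2*, whose product serves the IL-3 receptor. CSF3 (G-CSF), the main growth factor of neutrophils, acts through CSF3R. The alpha, beta and CSF3R chains have no kinase domain and signal through JAK kinases and STAT factors. Macrophages stimulated through Toll-like receptors are a known source of CSF3, and its mRNA is a textbook example of a short-lived transcript with AU-rich elements.

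The 7 genes lie on 6 chromosomes of GRCm38. *Csf1* (Entrez gene 12977) is at chr3:107741048-107760469 on the minus strand, *Csf3* at chr11:98701263-98703629 on the plus strand, *Csf2ra* at chr19:61223957-61228429 on the minus strand and *Csf3r* at chr4:126024550-126044440 on the plus strand. *Csf2rb* at chr15:78325752-78353847 on the plus strand and *Csf2rb2* at chr15:78282507-78305721 on the minus strand are neighbours that face away from each other. Their exons together span 1413 bases in *Csf3*, 2871 in *Csf2ra*, 3609 in *Csf3r*, 4740 in *Csf2rb2*, 5281 in *Csf1*, 5774 in *Csf1r* and 7277 in *Csf2rb*.

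The AU-rich pentamer ATTTA was searched only after the stop codon. There it occurs in all the ligand transcripts and, of the receptor transcripts, in that of *Csf1r*. After the stop codon of the longest coding transcript it occurs 6 times in the 669 bases of *Csf3*, 4 times in the 2111 bases of *Csf1*, 9 times in the 317 bases of *Csf2* and 3 times in the 1669 bases of *Csf1r*. It does not occur in those stretches of *Csf2ra*, *Csf2rb*, *Csf2rb2* or *Csf3r*. Of 20675 coding genes with such a stretch, 61.6% hold the pentamer and 32.1% hold it 3 or more times. In the same stretches the nonamer TTATTTATT, present in 6.91% of genes, occurs 4 times in *Csf2* and in none of the 7 genes measured here. The 30-base windows of the 2 measured ligands with the most pentamers are shown as matches of letters only. They start 28 bases after the stop codon in *Csf3* (chr11:98702988-98703017, plus strand) and 2027 bases after it in *Csf1* (chr3:107741103-107741132, minus strand). Capitals mark the pentamers, and both sequences are from GENCODE transcripts on GRCm38.
Csf3: gtttATTTAtctctATTTAatATTTAtgca
Csf1: taaggtcATTTAaatatctATTTAaaaaat

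The *Csf1* promoter is shown because *Csf1* was the ligand gene raised by LPS for which RefSeq gave a promoter sequence (GRCm38.p6). The 250 bases before the start, chr3:107760470-107760719 on the minus strand, hold a match to the NF-kB motif GGANTTNCC, here in capitals on the reverse strand, 154 bases before the start.
Csf1: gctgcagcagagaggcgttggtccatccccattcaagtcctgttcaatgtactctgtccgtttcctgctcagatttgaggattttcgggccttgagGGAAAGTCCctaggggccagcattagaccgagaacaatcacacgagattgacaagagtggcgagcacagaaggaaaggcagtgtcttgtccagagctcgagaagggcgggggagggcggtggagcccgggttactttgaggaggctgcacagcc
Searched on both strands of 300 bases, this motif occurs in 3.95% of 32851 RefSeq promoters. Within their windows, the promoters of *Csf2ra*, *Csf2rb2* and *Csf3r* did not hold it, and *Csf1*, *Csf2ra*, *Csf2rb2* and *Csf3r* did not hold the AP-1 motif TGANTCA (7.81% of promoters), the C/EBP motif TTGCNNAA (10.8%) or, on the plus strand, the TATA box TATAAA (8.32%). The PU.1 motif GAGGAAGT (3.2%) occurred in that of *Csf2rb2*, 27 bases after the start. These are matches of letters, and no binding was measured.

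The paralogous beta chain genes share sequence, so reads of shared stretches may not be told apart. How such reads were counted was not examined. Their coding sequences were identical at 95.2% of 2631 aligned bases, and 19% of the 50-base stretches of the *Csf2rb2* transcript also occur in *Csf2rb*. The split of reads between them is therefore uncertain. The 60-base coding stretch in which they differ most, shown because reads there are told apart, lies at chr15:78338893-78338952 in *Csf2rb* and chr15:78294379-78294438 in *Csf2rb2* and has 13 differences, in capitals.
Csf2rb: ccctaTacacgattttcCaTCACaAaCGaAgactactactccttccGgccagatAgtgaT
Csf2rb2: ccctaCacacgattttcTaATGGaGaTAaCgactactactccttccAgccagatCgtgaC

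Between 9525979 and 12439960 reads per library were counted on the listed genes, and a count of 3 reads, taken as the floor, was worth 0.209 to 0.349 CPM, the unit of reads scaled to a common library size. Counting intervals and floors cover counting error only. All 7 macrophage markers examined were listed, and their summed level ran from 14953 to 26963 CPM. Of 7 neutrophil markers, only *S100a8* was listed, at 20.2 to 35.0 CPM in WT and 51.0 to 54.1 CPM in S513A PECs at 0 hr, against 81.6 to 98.9 and 31.7 to 83.9 CPM at 8 hr. Summed levels stayed at or below 48.7 CPM for 5 of 6 mesothelial cell and fibroblast markers, 18.4 CPM for 2 of 4 eosinophil markers, 10.1 CPM for 3 of 4 dendritic cell markers, 8.68 CPM for 4 of 4 B cell markers, 2.07 CPM for 2 of 3 mast cell markers and 1.09 CPM for 1 of 5 T cell markers. Neither NK cell marker was listed. In these bulk samples, fewer cells of a type and less RNA per cell cannot be told apart. Libraries of a group also differed in the level of long against short transcripts. Over 4964 genes with exons of at least 5000 bases and 720 genes under 1500 bases, the median deviation of long transcripts minus that of short ones ran from -0.49 to 0.68 on the log2 scale. The WT pair at 4 hr had -0.19 and 0.50, the S513A pair at 4 hr 0.02 and -0.49 and the S513A pair at 8 hr 0.68 and 0.07. The replicates at 4 hr in WT PECs were also the least alike, with an SD of 0.40 for the log2 difference over 8353 genes, against 0.16 to 0.34 in the other 5 groups.

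PECs held more receptor than ligand transcript in every library. Per kilobase of exon, *Csf1r* ran from 153 to 312 CPM over the 12 libraries, *Csf2ra* from 118 to 196, *Csf2rb* from 77.6 to 145, *Csf2rb2* from 67.5 to 133 and *Csf3r* from 18.8 to 35.6. The ligands lay lower, with *Csf1* at 1.45 to 5.38 and *Csf3* at 0.0545 to 7.85 CPM per kilobase. At 4 hr *Csf3* lay closest to *Csf3r*, at 7.68 to 7.85 against 24.1 to 32.7 in WT PECs. In S513A PECs at that time *Csf3* lay at 5.15 to 7.24 against 20.7 to 23.8. Per kilobase, the order of the 5 receptors was the same in all 12 libraries. *Csf1r* stood above *Csf2ra*, then *Csf2rb*, *Csf2rb2* and *Csf3r*, although the ranges of neighbours among the first 4 overlapped between libraries. This order depends on the length used, which joins all exons of a gene. By CPM alone *Csf2rb* stood above *Csf2ra* in every library, as at 854 against 410 CPM in WT 0 hr replicate 1. Per kilobase, *Csf1* exceeded *Csf3* in 8 libraries and *Csf3* exceeded *Csf1* in the 4 libraries at 4 hr. By CPM *Csf1* stood above *Csf3* at 4 hr as well, as at 20.2 against 11.1 CPM in WT 4 hr replicate 1. Of the reads assigned to the beta chain genes, *Csf2rb2* took 33.9% to 39.1% (median 37.2%).

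**Figure D1:**
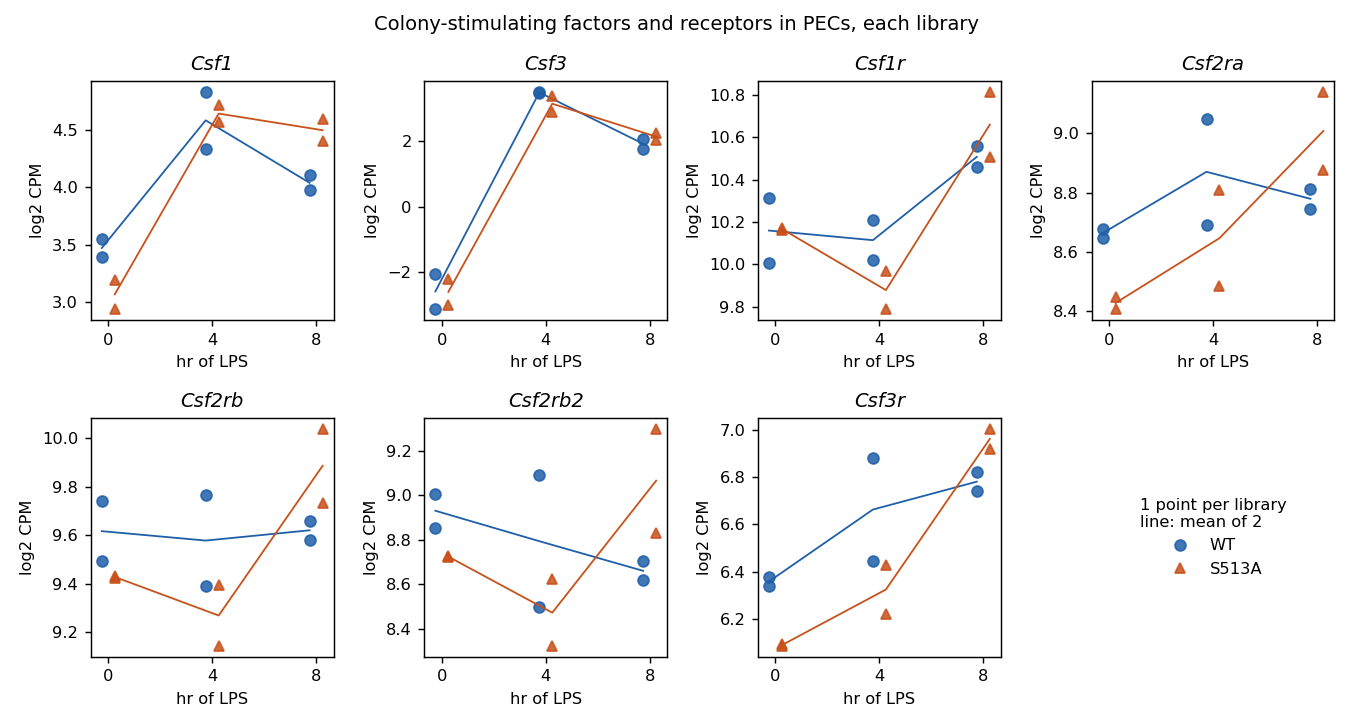
Log2 CPM of each gene (vertical axes, a scale of its own in each panel) against hr of LPS (horizontal axes) in WT (circles) and S513A (triangles) PECs, with a point for each of the 12 libraries and lines through the means of 2. *Csf3* and *Csf1* stand above their 0 hr libraries at 4 and 8 hr in both genotypes, and the WT libraries at 4 hr lie apart from each other in *Csf1* and the receptors.

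*Csf3* rose from the floor to its highest level at 4 hr of LPS. Unstimulated WT PECs had 3 and 1 reads and unstimulated S513A PECs 2 and 1 reads, all at or below the floor. At 4 hr it had 126 and 118 reads in WT and 74 and 88 reads in S513A PECs, or 11.1 and 10.8 CPM against 7.28 and 10.2 CPM. At 8 hr it had 35 and 43 reads in WT and 46 and 43 reads in S513A PECs, or 3.32 and 4.10 CPM against 3.97 and 4.66 CPM. Every stimulated library stood above every unstimulated library, and in both genotypes the 8 hr libraries lay below those at 4 hr. As a ratio of pooled CPM with a 95% counting interval, *Csf3* at 4 hr was 75.0 times its 0 hr level in WT (28.9 to 277) and 67.1 times in S513A PECs (22.5 to 329). At 8 hr these ratios were 25.4 (9.52 to 95.5) and 33.2 (11.0 to 164). The fitted log2 fold changes depend on the 0.5 read added to each count. They were 6.04 at 4 hr in WT (SE 0.40, limma adjusted p = 7.26e-07) and 5.71 in S513A PECs (SE 0.40, adjusted p = 1.06e-06), then 4.48 (adjusted p = 9.11e-06) and 4.71 (adjusted p = 5.67e-06) at 8 hr. With a further pseudocount of 1 CPM they were 3.35 and 3.05 at 4 hr and 2.01 and 2.19 at 8 hr, all still called. From 4 to 8 hr *Csf3* fell by 1.56 on the log2 scale in WT PECs (SE 0.40, limma adjusted p = 0.0267). Leaving out any single WT library at 4 or 8 hr ended that call, with adjusted p from 0.0572 (without WT 4 hr replicate 1) to 0.163 (without WT 8 hr replicate 1). In S513A PECs the same step was -0.999 (adjusted p = 0.101), and 2 alternatives called it, voom weights (adjusted p = 0.0142) and a further pseudocount (adjusted p = 0.0096), with adjusted p over all alternatives up to 0.421.

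*Csf1*, expressed before stimulation, rose about as early but far less. In WT PECs it was at 11.7 and 10.5 CPM at 0 hr, 20.2 and 28.4 CPM at 4 hr and 15.7 and 17.2 CPM at 8 hr. In S513A PECs it was at 7.64 and 9.14 CPM at 0 hr, 26.2 and 23.7 CPM at 4 hr and 24.1 and 21.1 CPM at 8 hr. In each genotype all 4 stimulated libraries stood above both unstimulated ones. At 4 hr *Csf1* was 2.16-fold higher than at 0 hr in WT (log2 fold change 1.11, SE 0.18, limma adjusted p = 0.000491) and 2.97-fold higher in S513A PECs (1.57, SE 0.18, adjusted p = 3.79e-05). At 8 hr it was 1.48-fold higher in WT (0.57, SE 0.18, adjusted p = 0.029) and 2.69-fold higher in S513A PECs (1.43, SE 0.18, adjusted p = 9.64e-05). The WT call at 8 hr was lost without any single WT library at 0 or 8 hr, with adjusted p from 0.0681 (without WT 0 hr replicate 1) to 0.16 (without WT 8 hr replicate 2). From 4 to 8 hr *Csf1* had a value of -0.54 in WT (adjusted p = 0.0659) and -0.14 in S513A PECs (adjusted p = 0.58). Without WT 4 hr replicate 1 the WT value was -0.79 (adjusted p = 0.0104).

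**Figure D2:**
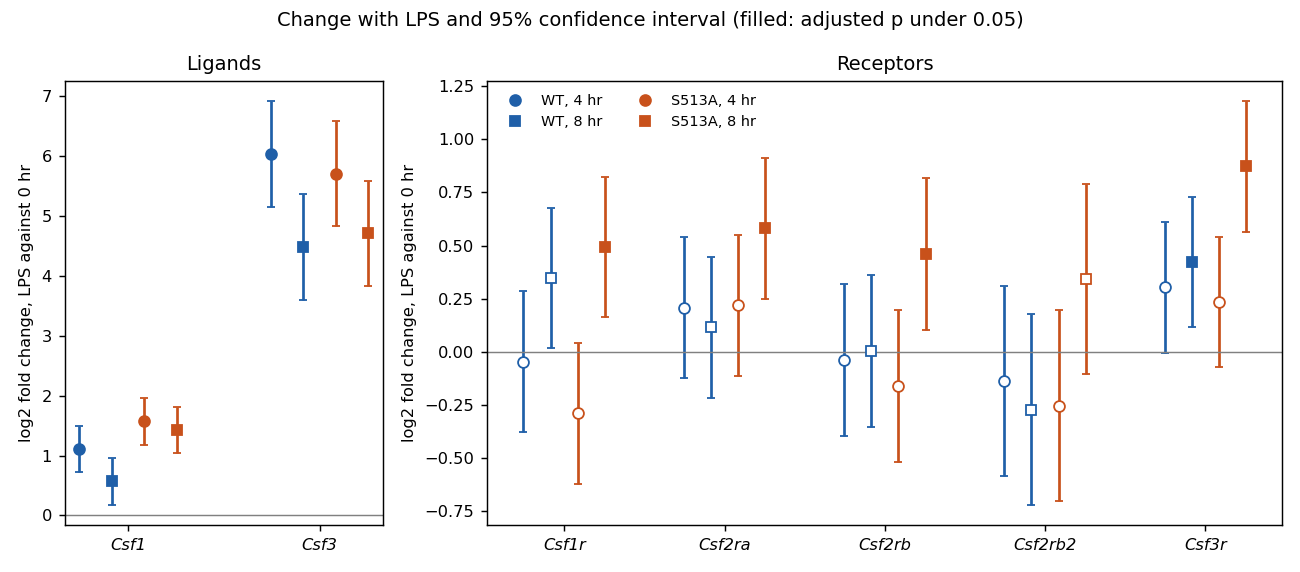
Log2 fold change against 0 hr with its 95% confidence interval (vertical axes) for the 2 ligand genes (left) and the 5 receptor genes (right, on a finer scale) at 4 hr (circles) and 8 hr (squares) of LPS in WT and S513A PECs. The ligands run from 0.57 to 6.04, the receptors from -0.29 to 0.87, and the filled receptor symbols lie at 8 hr. With a covariate for transcript length or after quantile normalization, several receptor values change call or sign.

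At 4 hr the log2 fold changes of the receptor genes lay between -0.29 and 0.30, and none passed the test. *Csf1r*, on chromosome 18, was at 1270 and 1030 CPM in WT PECs at 0 hr, 1039 and 1182 CPM at 4 hr and 1506 and 1407 CPM at 8 hr. In S513A PECs it was at 1155 and 1145 CPM, then 1002 and 884 CPM, then 1800 and 1453 CPM. The 8 hr libraries stood above all others of their genotype. At 4 hr the log2 fold change of *Csf1r* was -0.05 in WT (95% confidence interval -0.38 to 0.29, limma adjusted p = 0.836) and -0.29 in S513A PECs (-0.62 to 0.04, adjusted p = 0.146). At 8 hr it was 0.35 in WT (SE 0.15, adjusted p = 0.0959) and 0.49 in S513A PECs (SE 0.15, adjusted p = 0.0235). From 4 to 8 hr *Csf1r* rose by 0.78 in S513A PECs (SE 0.15, adjusted p = 0.00647), against 0.39 in WT PECs (adjusted p = 0.108). After quantile normalization *Csf1r* was called lower at 4 hr in WT (-0.57, adjusted p = 0.0247) and S513A PECs (-0.70, adjusted p = 0.00794). The same scaling turned the WT value at 8 hr to -0.10 (adjusted p = 0.702), while a fit of only the libraries compared called it higher (0.35, adjusted p = 0.0337).

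*Csf2ra*, the specific chain of the GM-CSF receptor, was at 410 and 401 CPM in WT PECs at 0 hr, 413 and 529 CPM at 4 hr and 449 and 429 CPM at 8 hr. In S513A PECs it was at 349 and 339 CPM, then 448 and 358 CPM, then 564 and 470 CPM. The S513A libraries at 8 hr were the highest of that genotype, while WT 4 hr replicate 2 was the highest WT library. *Csf2ra* rose at 8 hr in S513A PECs (log2 fold change 0.58, SE 0.15, limma adjusted p = 0.011), and the WT value was 0.12 (adjusted p = 0.578). At 4 hr it was 0.21 in WT (adjusted p = 0.302) and 0.22 in S513A PECs (adjusted p = 0.272), and after quantile normalization the sign turned in both, to -0.27 and -0.14.

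The common beta chain gene *Csf2rb* was at 854 and 721 CPM in WT PECs at 0 hr, 670 and 871 CPM at 4 hr and 808 and 766 CPM at 8 hr. The S513A libraries were at 686 and 691 CPM, then 673 and 565 CPM, then 1053 and 851 CPM. The WT libraries of the 3 time points overlapped, and the S513A libraries at 8 hr stood above the rest. *Csf2rb* rose in S513A PECs against 0 hr (log2 fold change 0.46, SE 0.16, limma adjusted p = 0.0435) and against 4 hr (0.62, SE 0.16, adjusted p = 0.0252). After quantile normalization it was called lower at 4 hr in S513A PECs (-0.53, adjusted p = 0.0424), where the value was otherwise -0.16 (adjusted p = 0.467). In WT PECs its 8 hr value was 0.00 (95% confidence interval -0.35 to 0.36, adjusted p = 0.988).

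*Csf2rb2*, the IL-3 beta chain, had values on the same side as *Csf2rb* in S513A PECs, and its calls came only with some of the alternatives below. In WT PECs it was at 515 and 463 CPM before LPS, 361 and 546 CPM at 4 hr and 417 and 393 CPM at 8 hr. In S513A PECs it was at 423 and 423 CPM, then 394 and 320 CPM, then 631 and 456 CPM. The 4 hr WT libraries enclosed all other WT values. The 8 hr log2 fold change was -0.27 in WT (SE 0.20, limma adjusted p = 0.328) and 0.34 in S513A PECs (SE 0.20, adjusted p = 0.203). In WT PECs it was called lower at 8 hr after quantile normalization (-0.67, adjusted p = 0.0368) and with only the libraries compared (-0.27, adjusted p = 0.0285). From 4 to 8 hr in S513A PECs *Csf2rb2* had a value of 0.59 (adjusted p = 0.0645), and was called without S513A 8 hr replicate 2 (0.83, adjusted p = 0.0264), without either WT library at 4 hr (adjusted p = 0.0205) and after quantile normalization (0.76, adjusted p = 0.0421). These *Csf2rb2* values may hold reads of *Csf2rb*, and the other way round.

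*Csf3r*, the receptor of CSF3, was the receptor gene with the largest fold change at 8 hr, in S513A PECs, under all alternatives run. It was at 83.1 and 80.9 CPM in WT PECs at 0 hr, 86.9 and 118 CPM at 4 hr and 107 and 113 CPM at 8 hr. The S513A libraries were at 68.2 and 67.9 CPM, then 85.9 and 74.6 CPM, then 128 and 121 CPM. All stimulated libraries stood above the unstimulated ones of their genotype. At 8 hr *Csf3r* was 1.83-fold higher than at 0 hr in S513A PECs (log2 fold change 0.87, SE 0.14, limma adjusted p = 0.000602) and 1.34-fold higher in WT PECs (0.42, SE 0.14, adjusted p = 0.037). In S513A PECs it also rose from 4 to 8 hr (0.64, SE 0.14, adjusted p = 0.0117). At 4 hr its value was 0.30 in WT (adjusted p = 0.105) and 0.23 in S513A PECs (adjusted p = 0.202), and the WT value was called without WT 4 hr replicate 1 (0.52, adjusted p = 0.00535). The WT call at 8 hr was lost without any WT library at 0 or 8 hr or either S513A library at 0 hr, with adjusted p from 0.0589 (without S513A 0 hr replicate 1) to 0.178 (without WT 8 hr replicate 2). It was also lost after median-ratio scaling (0.39, adjusted p = 0.0563) and quantile normalization (0.25, adjusted p = 0.174). *S100a8*, the listed neutrophil marker, was at 20.2 and 35.0 CPM at 0 hr and 81.6 and 98.9 CPM at 8 hr in WT PECs. In S513A PECs it was at 51.0 and 54.1 CPM at 0 hr. The S513A libraries at 8 hr, at 31.7 and 83.9 CPM, lay on either side of these. With no other neutrophil marker listed, these values cannot tell the number of neutrophils from *S100a8* RNA per cell. Whether neutrophil content bears on the *Csf3r* values was not tested.

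Over the members, LPS at 4 hr raised 2 of 7 genes in WT and 2 of 7 in S513A PECs, the ligands in each case, and no other member had a limma unadjusted p under 0.05. Of all genes tested, 22.6% were called higher and 18.7% lower in WT, and 23.1% and 20.2% in S513A PECs. At 8 hr 3 of 7 were higher in WT PECs, where 19.4% of all genes were called higher and 14.9% lower, and 6 of 7 were higher in S513A PECs, where 20.9% were called higher and 19% lower. From 4 to 8 hr, 1 member was lower in WT PECs (6.73% of all genes higher, 7.49% lower) and 3 were higher in S513A PECs (9.31% higher, 8.99% lower). The median log2 fold change of the members at 4 hr was 0.21 in WT and 0.22 in S513A PECs, against medians over all genes of 0.04 and 0.00. At 8 hr the members had medians of 0.35 and 0.58, against 0.03 and -0.01 over all genes.

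The receptor values moved with the difference between long and short transcripts of the libraries. The mean log2 CPM of the 5 receptor genes was lowest, 8.39, in S513A 4 hr replicate 2, whose length difference of -0.49 was also the lowest, and highest, 9.26, in S513A 8 hr replicate 1, whose length difference of 0.68 was the highest. Over the 12 libraries, which share time points, Pearson's r was 0.803. In 5 of 6 groups the library with the higher length difference had the higher receptor mean. With the length difference as a covariate, chosen after seeing the data, the 8 hr values in S513A PECs were 0.20 for *Csf1r* (limma adjusted p = 0.178), 0.24 for *Csf2ra* (adjusted p = 0.0627), 0.08 for *Csf2rb* (adjusted p = 0.558) and -0.18 for *Csf2rb2* (adjusted p = 0.144), while *Csf3r* kept its call at 0.60 (adjusted p = 0.000673). Quantile normalization gave 0.22, 0.42, 0.25 and 0.17 for the same genes, none called, and 0.74 for *Csf3r* (adjusted p = 0.00111). Over all alternatives run, the adjusted p of the 8 hr values in S513A PECs ranged from 0.014 to 0.357 for *Csf1r*, from 0.00401 to 0.0894 for *Csf2ra*, from 0.0201 to 0.558 for *Csf2rb* and from 4.83e-05 to 0.0073 for *Csf3r*. In WT PECs at 8 hr the same covariate gave 0.53 for *Csf1r* (adjusted p = 0.00037), 0.33 for *Csf2ra* (adjusted p = 0.00453), 0.24 for *Csf2rb* (adjusted p = 0.0263) and 0.59 for *Csf3r* (adjusted p = 0.000181). Without S513A 8 hr replicate 1, the calls of *Csf1r* (0.34, adjusted p = 0.181), *Csf2ra* (0.45, adjusted p = 0.0894) and *Csf2rb* (0.30, adjusted p = 0.268) at 8 hr were also lost. They were lost as well without S513A 0 hr replicate 1 (0.50, 0.60 and 0.45) or replicate 2 (0.49, 0.56 and 0.46), and that of *Csf2rb* without any WT library at 0 or 8 hr. Without S513A 8 hr replicate 1 or S513A 4 hr replicate 2, the 3 calls from 4 to 8 hr in S513A PECs were lost, at 0.63 and 0.69 for *Csf1r*, 0.46 and 0.49 for *Csf2rb* and 0.59 and 0.54 for *Csf3r*. At 4 hr the covariate gave calls for *Csf2ra* (0.23, adjusted p = 0.0135) and *Csf3r* (0.32, adjusted p = 0.00512) in WT PECs, higher, and for *Csf1r* (-0.33, adjusted p = 0.00347), *Csf2rb* (-0.21, adjusted p = 0.0186) and *Csf2rb2* (-0.33, adjusted p = 0.0011) in S513A PECs, lower. *Csf1* and *Csf3* kept their calls against 0 hr with this covariate at both times in both genotypes.

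**Figure D3:**
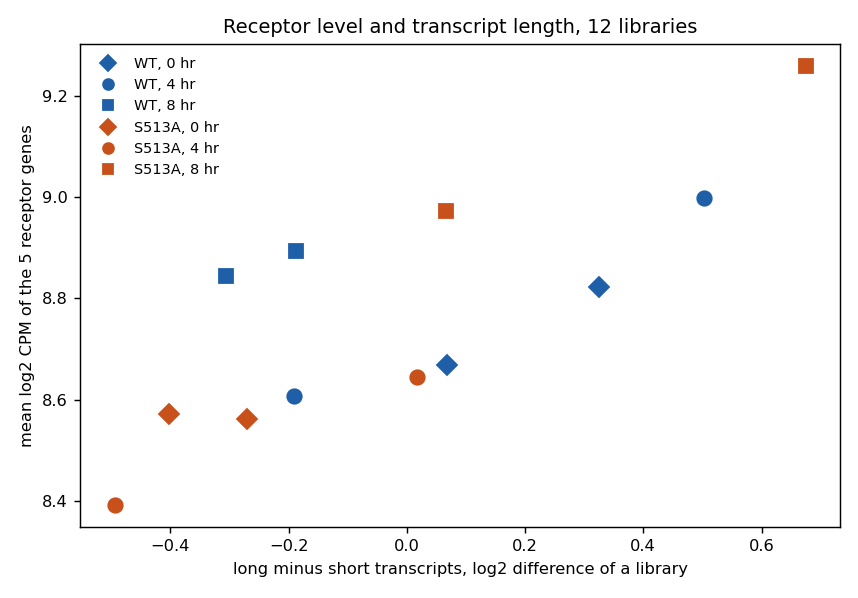
Mean log2 CPM of the 5 receptor genes (vertical axis) against the log2 difference of long and short transcripts of a library (horizontal axis), a point for each of the 12 libraries with shape for the time point and color for the genotype. Receptor means run from 8.39 to 9.26 and tend to be higher where long transcripts are higher, with the WT libraries at 8 hr and S513A 8 hr replicate 2 above the other libraries of like length difference.

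No member differed between S513A and WT PECs at the threshold. Before LPS 0.0337% of all genes were called, at 4 hr 0.0168% and at 8 hr 0.0337%, and the share was 0.0673% when the 3 time points were averaged. At an unadjusted p under 0.05, limma gave 1 member at each time point and 0 in their mean, against 949, 833, 1487 and 798 of all genes, and voom weights also called 0 members. The member at 0 hr was *Csf1*, lower in both S513A libraries (log2 fold change -0.40, SE 0.18, limma unadjusted p = 0.0438, adjusted p = 0.586). At 4 hr it was *Csf3r*, also lower in both (-0.34, SE 0.14, unadjusted p = 0.0339, adjusted p = 0.622). At 8 hr it was *Csf1*, higher in both S513A libraries (0.46, SE 0.18, unadjusted p = 0.0254, adjusted p = 0.395). With the length covariate these values were -0.14, -0.19 and 0.16. For *Csf3* the 95% confidence intervals ran from -1.22 to 0.54 at 4 hr and from -0.66 to 1.10 at 8 hr. For *Csf1r* the interval averaged over the time points ran from -0.22 to 0.17.

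**Figure D4:**
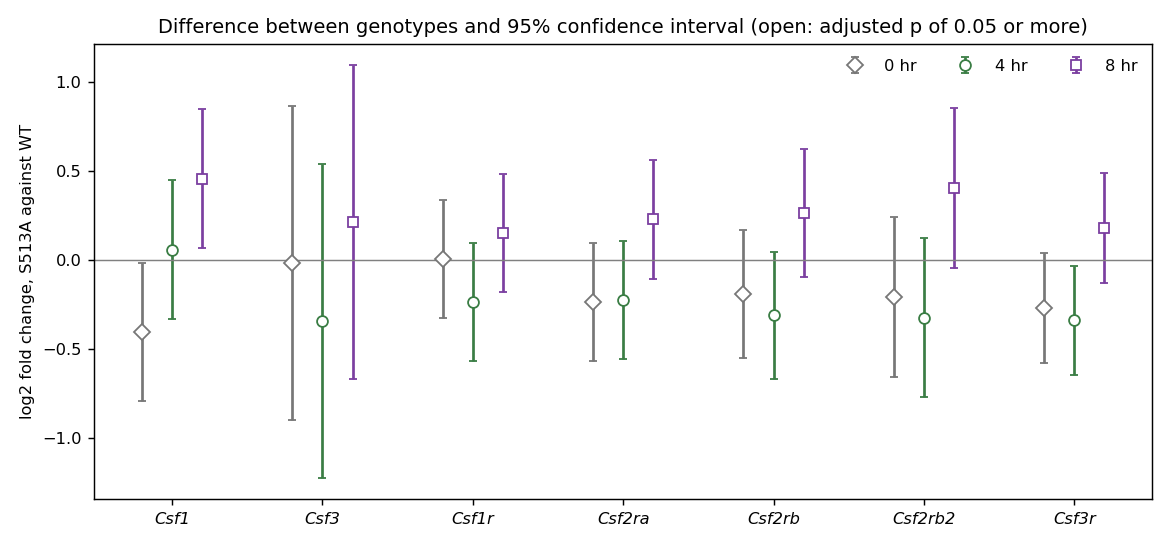
Log2 fold change of S513A against WT PECs with its 95% confidence interval (vertical axis) for the 7 measured genes at 0 hr (diamonds), 4 hr (circles) and 8 hr (squares). No adjusted p is under 0.05. The 8 hr values all lie above 0, from 0.15 to 0.46, and shrink for *Csf1* to 0.16 with a covariate for transcript length.

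The test of the difference in LPS response between genotypes called 0% of genes at 4 hr and 0% at 8 hr, and no member. By unadjusted p under 0.05, limma gave 0 members of 144 such genes at 4 hr and 2 members of 2405 such genes at 8 hr, and voom weights called 0 members at either time. At 8 hr the LPS response of *Csf1* was larger in S513A than in WT PECs by 0.86 on the log2 scale, which did not pass the adjusted test (SE 0.25, limma unadjusted p = 0.00569, adjusted p = 0.193), and *Csf3r* had a difference of 0.45 (SE 0.20, unadjusted p = 0.0435, adjusted p = 0.238). At 8 hr 20.2% of all genes had an unadjusted p under 0.05. With the length covariate the values were 0.30 for *Csf1* and 0.01 for *Csf3r*.

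Genes that act below or beside the receptors were taken from lists and are set beside the shares over all genes, which at 4 hr were 22.6% higher and 18.7% lower in WT and 23.1% and 20.2% in S513A PECs, with a median log2 fold change of 0.04 in WT. Of 57 such genes tested, limma called 0 between genotypes at 0, 4 or 8 hr, with 4, 3 and 10 at an unadjusted p under 0.05, and voom weights also called 0. Over all genes, that unadjusted share was 7.98%, 7.01% and 12.5%. For the difference in LPS response limma and voom weights again called 0 of the 57, with 1 at an unadjusted p under 0.05 at 4 hr and 15 at 8 hr, where the shares over all genes were 1.21% and 20.2%. Among 10 kinases and STAT factors, 7 were called at 4 hr in each genotype, all higher, and 6 in WT and 8 in S513A PECs were higher at 8 hr, where 19.4% and 20.9% of all genes were. The median of the list at 4 hr in WT PECs was 0.87. *Jak2*, the kinase bound to the beta chain, went from a mean of 58.3 to 538 CPM in WT and 59.3 to 521 CPM in S513A PECs at 4 hr (log2 fold changes 3.20 and 3.14, limma adjusted p = 7.8e-09 and 8.21e-09). *Pim1*, a survival kinase induced by STAT5, rose by 1.86 and 2.05. Of 10 feedback inhibitors, 6 were higher and 3 lower at 4 hr in WT, and 5 higher and 2 lower in S513A PECs, with a median of 0.55 in WT. *Socs1* rose by 4.53 and 4.84, *Socs3*, which restrains CSF3R signaling, by 2.98 and 3.36, and *Cish*, a STAT5 target, by 2.86 and 4.01 on the log2 scale in WT and S513A PECs. *Cish* was low, with mean levels of 0.663 and 0.301 CPM at 0 hr and 5.10 and 5.46 CPM at 4 hr. The lower S513A library at 0 hr, at -1.77 log2 CPM, was at the floor of 3 reads, so the S513A rise rests on few reads.

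Of the adaptors and effectors of CSF1R, 3 of 10 were higher and 2 lower at 4 hr in each genotype, close to the shares over all genes (22.6% and 18.7% in WT, 23.1% and 20.2% in S513A PECs), and the list had a median of 0.03 in WT. The phosphatase gene *Ptpn11* rose by 0.89 in each, *Pik3r1*, a regulatory subunit of PI3K, by 0.56 and 0.49, and the adaptor gene *Shc1* by 0.42 and 0.35, while *Grb2* and *Akt1* were lower. Of the 5 genes of ectodomain shedding, by which CSF1R is cut from the cell surface after LPS, 3 were higher and *Adam10* lower at 4 hr in each genotype, with a median of 0.86 in WT. The protease gene *Adam17* rose by 0.86 and 0.77 in WT and S513A PECs, and its partner *Rhbdf2* by 1.74 and 1.85. *Rhbdf1* rose by 1.90 and 1.25 from a mean of 1.75 and 1.63 CPM. Of 9 kindred ligands and receptors 5 were listed, of which 1 was called at 4 hr in WT and 2 in S513A PECs, with a median of 0.17 in WT. *Flt3l*, the ligand of FLT3, was lower at 4 hr (-0.93 and -1.08, limma adjusted p = 0.00734 and 0.003), and *Il3ra*, the IL-3 receptor alpha chain, had values of -0.04 and -0.07.

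Of 9 transcription factors of myeloid receptor genes, 8 were listed, and 4 were higher and 3 lower at 4 hr in each genotype, with a median of 0.65 in WT, where 22.6% of all genes were higher and 18.7% lower. *Ets2* rose by 3.18 and 3.12 and *Cebpd* by 2.13 and 2.07, while *Cebpa*, a factor of granulocyte and macrophage differentiation, fell by 1.59 and 1.63. *Spi1*, which encodes PU.1, was among those that rose, by 1.20 and 1.15. Of 9 genes for proteins that bind AU-rich or stem-loop elements, 4 were higher and 2 lower at 4 hr in each genotype, with a median of 0.31 in WT. *Zc3h12a* itself, the targeted gene, whose substitution does not remove its transcript, rose from 39.2 to 258 CPM in WT and from 32.9 to 243 CPM in S513A PECs (log2 fold changes 2.71 and 2.88, limma adjusted p = 2.91e-08 and 1.78e-08). Within the tristetraprolin family, *Zfp36l1* and *Zfp36l2* fell, with log2 fold changes of -2.10 and -0.95 in WT and -2.07 and -1.01 in S513A PECs. *Zfp36*, which encodes tristetraprolin itself, was called higher in both genotypes. Its mean went from 57.3 to 100 CPM in WT and from 45.0 to 82.3 CPM in S513A PECs.

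The genotype differences of these lists with a limma unadjusted p under 0.05 all had an adjusted p of 0.395 or more. At 0 hr they were *Socs3* (log2 fold change of S513A against WT -0.61), *Cish* (-1.02), *Stat3* (-0.34) and *Zfp36* (-0.35), each lower in S513A PECs (limma adjusted p = 0.586 for each). The *Cish* value rests on few reads, as the S513A libraries at 0 hr were at or near the floor. At 4 hr *Inpp5d*, which encodes the lipid phosphatase SHIP1, had -0.52, *Rhbdf1* -0.76 and *Sos1* -0.44 (limma adjusted p = 0.622 for each). The values at 8 hr were mostly positive, with *Pim1* at 0.43, *Ets2* at 0.54, *Irf8* at 0.25, *Ptpn11* at 0.22, *Rhbdf2* at 0.40, *Runx1* at 0.42 and *Sos1* at 0.42 (limma adjusted p = 0.395 to 0.397). *Tyrobp*, an adaptor of myeloid receptors, had -0.75, *Socs2* -0.83 and *Cebpd* -0.53 at that time (limma adjusted p = 0.395 for each). Averaged over the time points, *Dok2* had -0.23, *Timp3* -0.94, *Socs2* -0.57 and *Socs3* -0.23 (limma adjusted p = 0.559 to 0.716). Some of these values were of low genes or of libraries that lay apart. *Socs2* had means of 1.62 CPM in WT and 0.896 CPM in S513A PECs at 8 hr. The S513A libraries of *Tyrobp* at 8 hr were at 8.76 and 9.53 log2 CPM, and those of *Timp3* at 0 hr at 0.469 and 2.26. No values with the length covariate are given for the genes of these lists.

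**Figure D5:**
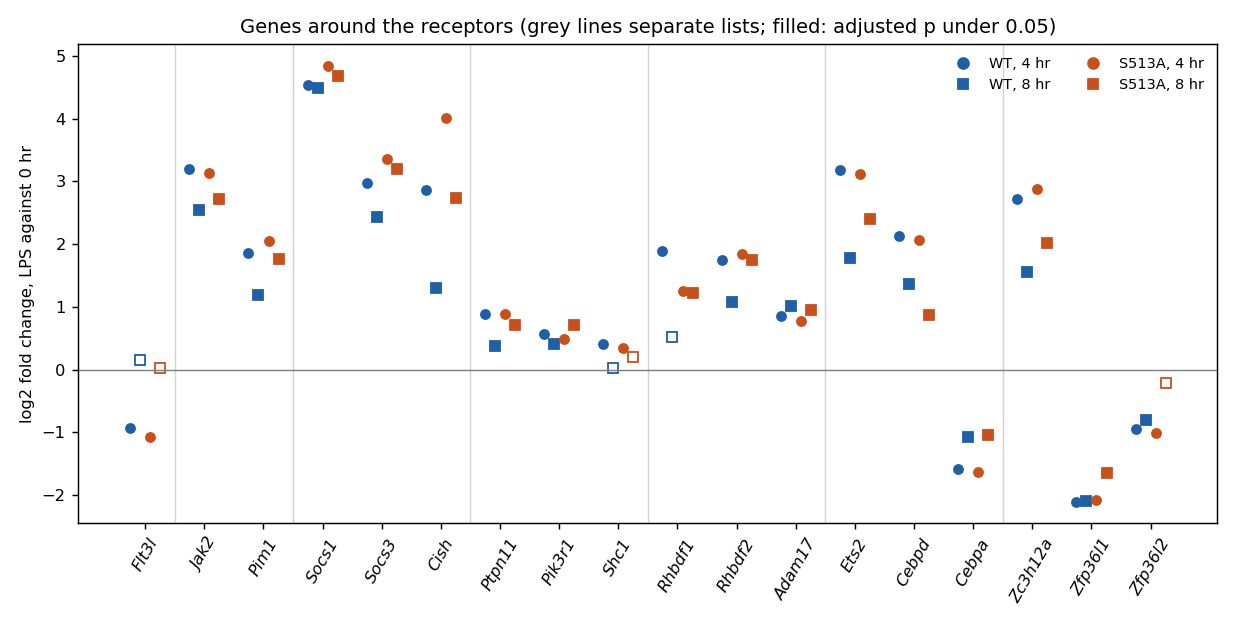
Log2 fold change against 0 hr (vertical axis) of genes named from the lists around the receptors (horizontal axis, grey lines separate the lists) at 4 hr (circles) and 8 hr (squares) of LPS in WT and S513A PECs. *Socs1* is highest, between 4.50 and 4.84, *Zfp36l1* is lowest, between -1.65 and -2.10, and open symbols mark an adjusted p of 0.05 or more.

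The genes most like each member over the 12 libraries were found by Pearson's r of log2 CPM, which reflects time points, library differences and, where shared, transcript length. *Csf3* was most like *Ptgs2*, the inducible cyclooxygenase (r = 0.993), then *Oasl1* and *Kpna4*. *Ptgs2* had mean levels of 3.79, 695 and 192 CPM at 0, 4 and 8 hr in WT and 4.59, 748 and 330 CPM in S513A PECs, so it peaked at 4 hr as *Csf3* did. *Csf1* was most like *Arhgap35* (r = 0.989) and *Nup160*, *Csf1r* like *Nfam1* (r = 0.973), *Nsf* and *Wnk2*, and *Csf3r* like *Abcc5* (r = 0.976) and *Ncstn*. *Csf2ra* was most like *Dennd1a* (r = 0.981), *Arid5b* and *Ehbp1l1*, *Csf2rb* like *Sirpa* (r = 0.983), *Myh9* and *Hyou1*, and *Csf2rb2* like *Diaph1* (r = 0.985), *Dnm2* and *Sh3pxd2b*. *Sirpa*, a macrophage surface receptor, had its highest mean, 1711 CPM, in S513A PECs at 8 hr, the group in which *Csf2rb* was also highest. Among the members, the ligands *Csf1* and *Csf3* had r = 0.926, *Csf2ra* and *Csf3r* r = 0.916, *Csf2rb* and *Csf2rb2* r = 0.907, and *Csf1r* and *Csf2rb* r = 0.877, whereas *Csf1* and its receptor gene *Csf1r* had r = 0.0719.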

How the data were processed

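RNA-seq of 12 PEC libraries was re-analysed. The authors mapped reads to mm10 with HISAT2 (paired, unstranded) and counted them with featureCounts 1.6.3, and the deposited values are log2 CPM after 0.5 read was added to each count. Whole reads were recovered from the steps of the values, with a largest departure of 0.00125 read. The strand setting of the counting is not given in the sources used here.

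The 11885 genes that reached 1 CPM in 2 or more libraries were tested with limma 3.58.1 in R 4.3.3, with a mean for each of 6 groups (6 residual degrees of freedom) and a prior that follows the mean. Tests were two-sided, with Benjamini-Hochberg adjustment over all genes tested and a threshold of 0.05. Counting intervals are exact and at 95%. The model was also run on simulated counts for the WT comparison of 4 with 0 hr, with the same spread setting for every gene. These counts held no transcript length differences between libraries, so they do not test for them. Gene lengths and positions came from GENCODE M21, in which 93.1% of listed genes were matched, and coding sequences were aligned with Biopython 1.88.

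The members and lists were chosen with earlier results of these data known. Named genes were all members, from each list the 3 called genes with the largest change at 4 hr in WT PECs, and the 3 genes most like each member, with a genotype difference given where its unadjusted p was under 0.05. *Grb2*, *Akt1*, *Adam10*, *Il3ra* and *Spi1* were named, and the LPS values of *Zfp36* given, after their values were seen. The rule names 3 more genes that are not reported here. Alternatives were other filters, pseudocounts, scalings, priors, voom weights, a replicate block, only the libraries compared and each library left out. A covariate for transcript length was added after seeing the data.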

Additional observations from a re-analysis of the deposited data

How the results depend on the processing

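The rise of *Csf1* at 4 hr and of *Csf3* at 4 and 8 hr in both genotypes, and of *Csf1* at 8 hr in S513A PECs, kept direction and call in every alternative that tested them (the stricter filter, a mean of 5 CPM, left *Csf3* out). The number of members called at 4 hr went from 2 to 1 in either genotype with the stricter filter, to 4 in WT and 5 in S513A PECs with the length covariate and to 4 in S513A PECs after quantile normalization. At 8 hr in WT PECs it went from 3 to 5 with only the libraries compared, to 6 with the length covariate and to 1 to 3 with a library left out. At 8 hr in S513A PECs it went from 6 to 3 after quantile normalization or with the length covariate and to 3 to 6 with a library left out. From 4 to 8 hr it went in WT PECs from 1 to 0 with the stricter filter, 3 with the length covariate and 0 to 1 with a library left out, and in S513A PECs from 3 to 0 with only the libraries compared and 0 to 4 with a library left out. The cause was not tested beyond the removal of *Csf3*.

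Some uncalled values changed sign. Quantile normalization gave -0.27 (WT) and -0.14 (S513A) for *Csf2ra* at 4 hr, and -0.10 for *Csf1r* (otherwise 0.35), -0.32 for *Csf2ra* and -0.33 for *Csf2rb* at 8 hr in WT PECs, where median-ratio scaling gave -0.027 for *Csf2rb*. The length covariate gave *Csf2rb2* 0.060 (WT) and -0.18 (S513A, otherwise 0.34) at 8 hr and, from 4 to 8 hr in WT PECs, 0.17 for *Csf2rb2* and 0.10 for *Csf2ra*. With each library left out, WT values at 4 hr ran from -0.20 to 0.11 (*Csf1r*), -0.23 to 0.15 (*Csf2rb*) and -0.44 to 0.16 (*Csf2rb2*), at 8 hr from -0.12 to 0.13 (*Csf2rb*), and from 4 to 8 hr from -0.27 to 0.087 (*Csf2ra*), -0.15 to 0.23 (*Csf2rb*), -0.43 to 0.16 (*Csf2rb2*) and -0.10 to 0.34 (*Csf3r*).

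Whether replicate numbers pair the samples was not settled. Differences between replicates 1 and 2 correlated between -0.75 and 0.76 over 15 pairs of groups, but pairs across genotypes cannot share a mouse. Within a genotype, r ran from -0.36 (WT, 4 with 8 hr) to 0.76 (S513A, 4 with 8 hr). The replicate block used a term shared by both genotypes, not a block by mouse. With a replicate block 2 calls were lost, *Csf3r* at 8 hr in WT (adjusted p = 0.0541) and *Csf2rb* at 8 hr in S513A PECs (adjusted p = 0.0545). A prior without a trend ended the same 2 calls, and with only the libraries compared *Csf1r* (adjusted p = 0.0523) and *Csf2rb* (adjusted p = 0.0503) lost theirs at 8 hr in S513A PECs. Members called between genotypes stayed at 0 in every alternative run. Over all genes, calls from 4 to 8 hr went from 1690 to 656 (WT) and 2175 to 596 (S513A) with only the libraries compared and to 2658 (WT) with the length covariate. Between genotypes they went from 4 to 0 and 693 at 0 hr, from 2 to 0 and 4 at 4 hr, from 4 to 1 and 5 at 8 hr, and from 8 to 3 and 98 in the mean. The interaction at 4 hr went from 0 to 1 gene with the length covariate. With 2 libraries a group, the median SE of 0.18 limits what could be called.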
